A study of Mus musculus with 27 samples.

Results

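The teneurins, latrophilins and Flrt proteins were followed as 10 genes, taken as the rows of the deposited expression table whose lower-case symbol is tenm1, tenm2, tenm3, tenm4, adgrl1, adgrl2, adgrl3, flrt1, flrt2 or flrt3. All 10 were found among the 26264 gene symbols of the table, and all 10 passed the filter on low values (1 FPKM or more on average) that left 12976 genes to test. FPKM are fragment counts divided by gene length and by library depth, so that levels can be set side by side between genes. The RNA came from female 5xFAD mice on a C57BL6 background at 16 weeks of age, and every mouse of every group carried the 5xFAD transgenes, which the Thy1 promoter drives in neurons, with no wild-type group among the libraries. Vehicle without drug or a 10 mM solution of R33 or R55, small molecules made to stabilise the retromer, was microinjected into the cortex of one hemisphere, and a small cortical block of the injected and of the contralateral hemisphere was taken 24 h later. The 27 libraries used came from 14 mice, of which 4 had received vehicle, 5 R33 and 5 R55, and 13 of them had both hemispheres. A block holds all cell types of the cortex, so fewer cells of a type and less RNA per cell cannot be told apart.

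Teneurins are very large transmembrane proteins that reach from the presynaptic membrane into the synaptic cleft. Their partners are the latrophilins, adhesion G protein-coupled receptors whose extracellular parts bind a teneurin and an Flrt protein side by side. Flrt proteins are membrane proteins with leucine-rich repeats that bind latrophilins and also the Unc5 netrin receptors, and in cortex and hippocampus the 3 families are known for guiding migrating neurons and axons and for the choice of synaptic partners.

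The depth was 15932196 to 38077026 fragments per library, and the members were read from 117 fragments (the lowest library for Tenm1) to 26735 fragments (the highest for Adgrl1). The library of the injected hemisphere of R33-treated mouse AD stood apart for these genes: it was the lowest of the 27 libraries for Tenm1, Tenm2, Tenm3, Tenm4, Adgrl1, Adgrl3, Flrt1, Flrt2 and Flrt3, and results for R33 are therefore also given without that mouse. Mice carry labels of 1 or 2 letters, whose meaning the labels do not give, and only 1 vehicle-treated mouse, AH, has a 2-letter label. All 5 markers of excitatory neurons were detected, with a sum of 1555 to 1866 FPKM over vehicle-treated mice, 1405 to 1783 after R33 and 1379 to 1945 after R55.

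The latrophilin Adgrl1 was the most abundant member and the teneurin Tenm1 the least. Adgrl1 measured 68.8 ± 7.14 FPKM (SD, n = 14 mice, each the mean of its hemispheres), at the 92.5th percentile of tested genes, and Tenm1 measured 1.71 ± 0.763 FPKM, at the 8.95th percentile. Adgrl1 exceeded the next gene, Adgrl2 at 13.8 ± 2.79 FPKM, by a factor of 5.07 in the geometric mean and did so in 14 of 14 mice. Below Adgrl2 the levels lay close together. Flrt2 followed at 11.9 ± 1.86 FPKM and was below Adgrl2 in 13 of 14 mice. Tenm3 (9.88 ± 2.67 FPKM), Adgrl3 (9.39 ± 1.52 FPKM), Tenm2 (8.88 ± 2.23 FPKM) and Tenm4 (7.74 ± 1.38 FPKM) were not ordered beyond their spread: Tenm3 exceeded Adgrl3 in 9 of 14 mice, Adgrl3 exceeded Tenm2 in 8, and Tenm2 exceeded Tenm4 in 10. Flrt2 exceeded Tenm3 in 10 of 14 mice. Flrt3 (6.1 ± 0.993 FPKM) lay below Tenm4 in 14 of 14 mice and above Flrt1 (5.94 ± 0.835 FPKM) in 7 of 14, so these Flrt genes could not be ranked. Flrt1 exceeded Tenm1 in all 14 mice, by a factor of 3.8 in the geometric mean.

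Adgrl1 made up 74.9 ± 2.34% of the summed latrophilin FPKM (SD, n = 14 mice), with a range of 72.2 to 79.5%, and Flrt2 made up 49.5 ± 3.51% of the Flrt sum. The teneurin sum was shared almost evenly by Tenm3 (34.8 ± 4.29%), Tenm2 (31.3 ± 3.06%) and Tenm4 (28.0 ± 4.59%), while Tenm1 held 5.86 ± 1.77%. Over the mice these shares ran from 24.9 to 40.4% for Tenm3, from 22.4 to 37.9% for Tenm4 and from 3.33 to 9.02% for Tenm1. Per treatment, the share of Tenm1 was 7.06 ± 1.73% in vehicle-treated mice, 5.86 ± 2.14% after R33 and 4.91 ± 0.881% after R55, with ranges of 5.05 to 8.62%, 3.33 to 9.02% and 4.06 to 6.26% that overlap.

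The genes differ in position and in the start region that RefSeq gives for them. On GRCm39, the build of the files, Tenm1 (ENSMUSG00000016150) spans 901.3 kb of chromosome X (41616743 to 42518044, minus strand), Tenm2 1229.3 kb of chromosome 11, Tenm3 618.3 kb of chromosome 8 and Tenm4 739.8 kb of chromosome 7. Adgrl3 spans 805.6 kb of chromosome 5, whereas Adgrl1 (ENSMUSG00000013033) takes 42.0 kb of chromosome 8 (84626588 to 84668583, plus strand). The promoter windows of RefSeq on GRCm38.p6, an older build than that of the files, were read for 9 of the 10 members, with Flrt1 unmatched, and run from 250 bases before to 50 after a start. Windows of the least and the most abundant member are shown because they are the ends of the level order, and that of Tenm3 because it alone held the cyclic AMP response element. Capitals mark matches on either strand of the TATA motif TATAAA, the Sp1 motif GGGCGG, the E-box CACGTG and the cyclic AMP response element TGACGTCA, and 1 stretch of Tenm1 has overlapping TATAAA matches on both strands.
Tenm1 (chrX:43274735-43275034, minus strand): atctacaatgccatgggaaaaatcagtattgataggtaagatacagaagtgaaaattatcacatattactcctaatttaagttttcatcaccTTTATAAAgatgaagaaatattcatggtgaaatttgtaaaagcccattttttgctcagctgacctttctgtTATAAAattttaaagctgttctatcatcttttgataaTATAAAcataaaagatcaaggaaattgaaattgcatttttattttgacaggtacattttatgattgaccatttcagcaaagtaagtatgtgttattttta
Adgrl1 (chr8:83899848-83900147, plus strand): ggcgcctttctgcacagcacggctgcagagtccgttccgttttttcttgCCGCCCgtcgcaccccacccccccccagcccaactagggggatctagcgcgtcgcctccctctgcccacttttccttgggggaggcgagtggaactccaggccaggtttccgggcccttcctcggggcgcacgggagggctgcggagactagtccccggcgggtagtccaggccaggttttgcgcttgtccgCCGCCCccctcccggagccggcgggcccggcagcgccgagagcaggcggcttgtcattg
Tenm3 (chr8:48674641-48674940, minus strand): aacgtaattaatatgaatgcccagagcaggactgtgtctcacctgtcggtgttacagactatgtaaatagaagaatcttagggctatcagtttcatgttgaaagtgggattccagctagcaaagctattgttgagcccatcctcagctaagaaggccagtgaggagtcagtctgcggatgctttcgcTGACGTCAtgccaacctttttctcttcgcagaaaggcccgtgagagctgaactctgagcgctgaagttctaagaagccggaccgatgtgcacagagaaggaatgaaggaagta

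The window of Tenm1 was 27% G or C with 0 CpG dinucleotides, and only 0.307% of the 32851 windows in the table were poorer in G and C. The Adgrl1 window was 70.0% G or C with 28 CpG and 2 matches of GGGCGG. The Tenm1 window held 4 matches of TATAAA, a motif in 13.6% of all windows that was also found for Adgrl2 and in 1 window of Adgrl3, and the Tenm3 window held TGACGTCA, which is in 1.79%. GGGCGG, in 35.7% of all windows, was found for Adgrl1 and in all 3 windows of Adgrl3, a pair of which overlap. CACGTG, in 7.15%, was found for Flrt2 alone among the 9 members. A match describes these letters only.

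After R55 no member passed the threshold of an adjusted p under 0.05 against vehicle, where 0.00771% of tested genes passed (limma on log2(FPKM + 1), treatment and hemisphere as factors, Benjamini-Hochberg adjustment over 12976 genes). The teneurins had the lowest values relative to vehicle. At an unadjusted p under 0.05, 5 of the 10 members were lower after R55 and none higher: Tenm1, Tenm2, Tenm3, Tenm4 and Adgrl3, against 3.74% of tested genes that were lower by that rule. Over all 10 members 8 had a lower value after R55, and the median log2 fold change was -0.24 against 0.03 over all tested genes. The smallest adjusted p of a member was 0.325, for Tenm1, so none of the differences that follow can be called. Mouse AD, of the R33 group, enters this comparison through the shared spread alone: without it 50 genes passed in place of 1, still with no member among them, and the smallest adjusted p of a member was 0.053 (limma).

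Tenm1 is the teneurin on the X chromosome. Its mouse means were 1.72, 2.03, 2.65 and 3.12 FPKM with vehicle and 0.91, 1.05, 1.06, 1.19 and 1.84 FPKM after R55. All R55-treated mice but mouse P lay below the lowest vehicle-treated mouse. The log2 fold change was -0.61 (SE 0.174, adjusted p = 0.325). It ranged from -0.71 without mouse P to -0.51 without mouse J, and it was -0.60 among mice with 1-letter labels and -0.56 among those with 2-letter labels, where vehicle is mouse AH alone. With 0.1 in place of 1 added to the FPKM it was -0.96, since the added 1 weighs on a gene at this level. The exons of Tenm1 share 1465 bases with exons of Sh2d1a on the opposite strand, and whether counting used the strand is not given in the sources used here. Other members have such overlaps too, among them Adgrl3 (1586 bases with Gm16054), Adgrl1 (1107 with Gm10644) and Tenm4 (992 with C230038L03Rik).

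Tenm2 and Tenm4 are autosomal teneurins with broad expression in cortex. Tenm2 measured 10.8, 10.8, 11.0 and 11.5 FPKM in the vehicle-treated mice and 5.17, 5.91, 9.21, 9.38 and 9.9 FPKM in the R55-treated ones. Tenm4 measured 7.64, 9.35, 9.47 and 10.3 FPKM with vehicle and 6.16, 7.05, 7.35, 7.42 and 7.6 FPKM after R55. For both genes every R55-treated mouse lay below every vehicle-treated mouse, although for Tenm4 the groups were 0.04 FPKM apart. The log2 fold changes were -0.45 for Tenm2 (SE 0.185, adjusted p = 0.557) and -0.33 for Tenm4 (SE 0.107, adjusted p = 0.536). Tenm3 measured 7.91, 10.6, 12.2 and 13.8 FPKM with vehicle and 5.9, 5.96, 8.26, 10.7 and 10.8 FPKM after R55. Its groups overlapped, and its log2 fold change was -0.39 (SE 0.187, adjusted p = 0.586).

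Among the latrophilins, the teneurin receptors, Adgrl3 had the lowest value relative to vehicle. It measured 10.4, 10.8, 10.9 and 10.9 FPKM with vehicle and 8.07, 8.26, 8.38, 8.82 and 9.27 FPKM after R55, with no overlap between the groups. The log2 fold change was -0.31 (SE 0.128, adjusted p = 0.557). Non-overlap of mouse means in this direction held for 3 of the 10 members (Tenm2, Tenm4 and Adgrl3) against 1.43% of tested genes. Adgrl1 measured 72.5 ± 11.2 FPKM with vehicle and 68.6 ± 6.02 FPKM after R55 (SD, n = 4 and 5 mice), a log2 fold change of -0.07 with a 95% interval of -0.25 to 0.10. Adgrl2 measured 15.1 ± 3.96 and 13.2 ± 2.19 FPKM, a log2 fold change of -0.17 (95% interval -0.46 to 0.12).

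Flrt1 and Flrt3 had the values nearest to vehicle. Flrt1 measured 6.13 ± 1.5 FPKM with vehicle and 6.06 ± 0.386 FPKM after R55 (SD, n = 4 and 5 mice), and Flrt3 measured 6.25 ± 1.44 and 6.23 ± 0.986 FPKM. Their log2 fold changes were 0.01 each, with 95% intervals of -0.21 to 0.23 and -0.22 to 0.24. Flrt2 measured 12.8 ± 1.95 and 11.4 ± 1.64 FPKM, a log2 fold change of -0.16 (95% interval -0.41 to 0.09). All Flrt groups overlapped. With library scaling by median of ratios or with voom, Flrt1 and Flrt3 lay on the other side of 0, at -0.01 or nearer, so that all 10 members were then lower.

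**Figure D1:**
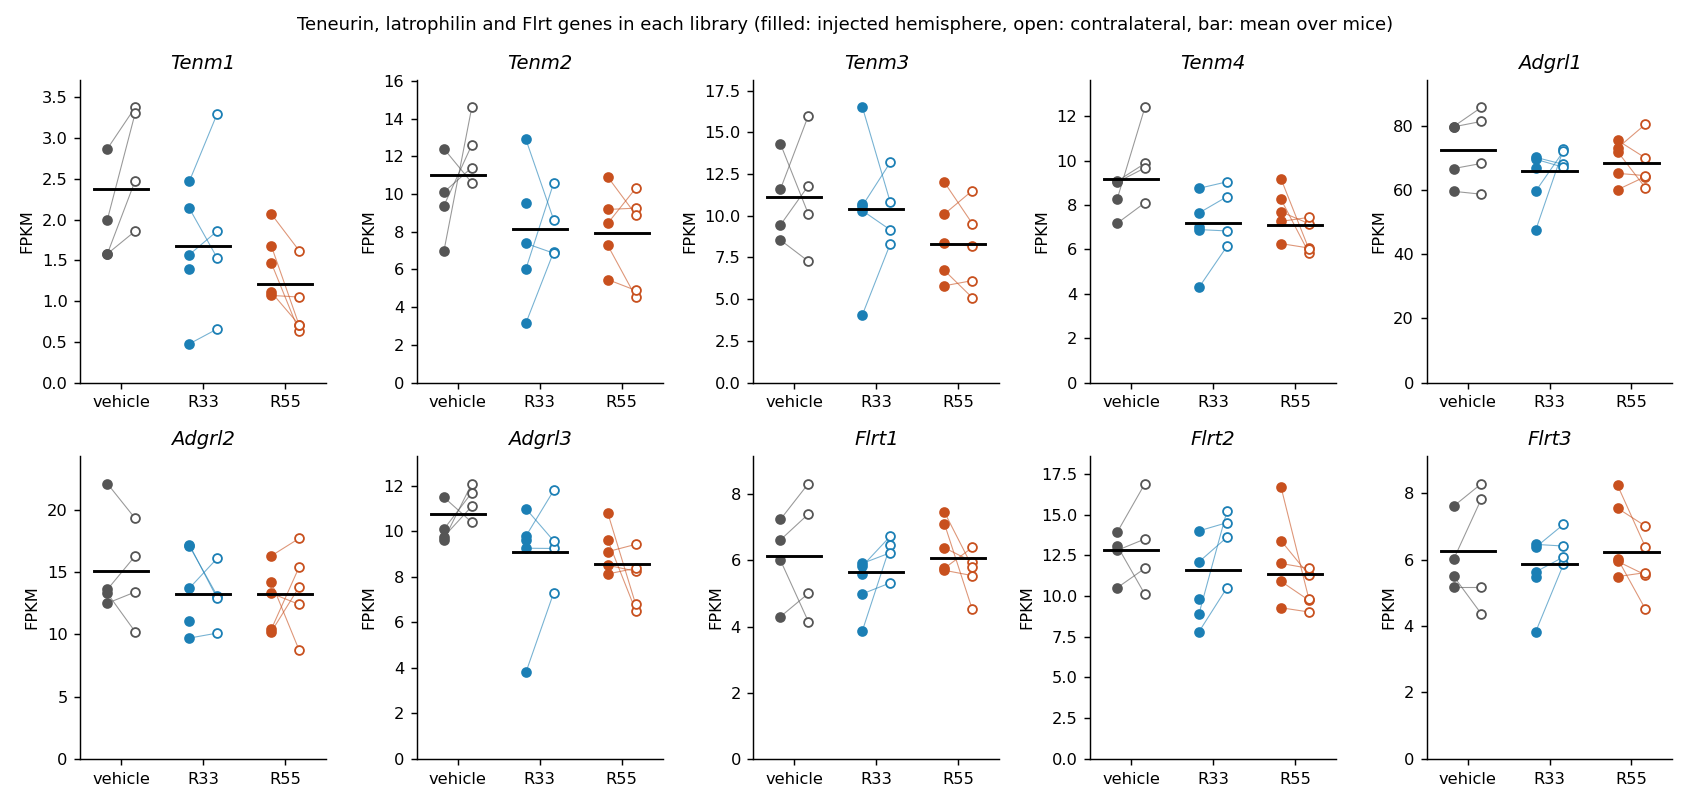
FPKM of the 10 genes in each library (y axis from 0, one panel per gene) by treatment (x axis), with filled points for the injected and open points for the contralateral hemisphere, lines joining the hemispheres of a mouse and bars for the mean over mice. Single libraries of the groups overlap (for Tenm2, 10.9 FPKM in an R55 and 6.98 FPKM in a vehicle library), while the means of both hemispheres of a mouse are below every vehicle mean in all 5 R55-treated mice for Tenm2, Tenm4 and Adgrl3 and in 4 of 5 for Tenm1.

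Hippocampal markers had a lower mean sum after R55 (21.4 FPKM) than with vehicle (39.9 FPKM): all 5 listed genes were detected, and the sum was 7.93 to 87.5 FPKM over vehicle-treated mice, 7.6 to 63.5 after R33 and 4.55 to 36.0 after R55. Their part in the values of the members was not tested. The sums of the 5 astrocyte markers were 322.0 to 671.0, 420.0 to 893.0 and 413.0 to 787.0 FPKM, those of the 4 striatal markers 38.6 to 89.8, 38.3 to 119.0 and 33.3 to 49.8 FPKM, and those of the 4 detected deep-layer markers 39.2 to 48.2, 34.8 to 41.0 and 23.7 to 47.0 FPKM, so the groups overlapped for each of these lists. Of the marker lists, those of microglia and inhibitory neurons went most strongly with Tenm1 over the 27 libraries, with Spearman correlations of -0.456 and -0.445. The sums of the 5 microglial markers were 124.0 to 172.0, 114.0 to 187.0 and 108.0 to 212.0 FPKM and those of the 6 inhibitory neuron markers 461.0 to 566.0, 473.0 to 713.0 and 451.0 to 666.0 FPKM, again with overlap, and their part in the values of Tenm1 was not tested.

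Gene length moved with the fold change as well. The members are long: the length behind their FPKM was 4537 bp for Flrt3, 5862 for Flrt1, 6052 for Adgrl2, 7097 for Flrt2, 8188 for Adgrl1, 8361 for Tenm1, 9779 for Tenm2, 10978 for Tenm3, 13251 for Adgrl3 and 14048 for Tenm4, against a median of 3149 bp over tested genes. The 5 members at an unadjusted p under 0.05 after R55 were the 5 longest. Across the 12976 tested genes, which are not independent replicates, the fold change after R55 had a Spearman correlation with length of -0.494. In the longest of 20 equal bins of tested genes, with a median length of 10046 bp, the median log2 fold change was -0.15, and 10% of genes were below -0.32.

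With a lowess trend on length removed from each library, 1 of 10 members was lower at an unadjusted p under 0.05, Tenm1, against 2.14% of tested genes, and the median of the members was -0.09 in place of -0.24. Tenm1 then had a log2 fold change of -0.49 (SE 0.142, adjusted p = 0.713). Tenm4 had -0.09 (SE 0.0686) and Adgrl3 -0.08 (SE 0.0686), while Tenm2 had -0.29 (SE 0.16) and Tenm3 -0.20 (SE 0.162). Adgrl1 had 0.05 (SE 0.0677), on the other side of 0. The removal also takes out any change that long genes share, and the 2 cannot be told apart.

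**Figure D2:**
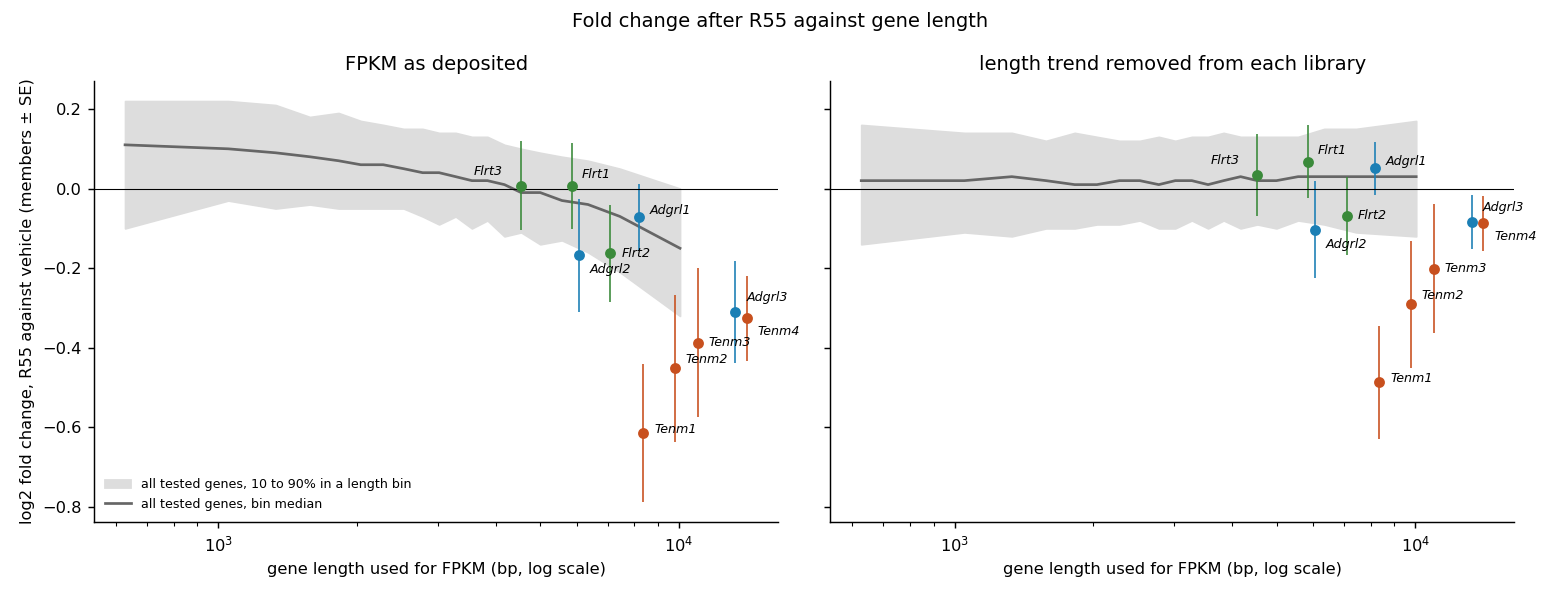
Log2 fold change after R55 (y axis, members with ± SE) against the gene length used for FPKM (x axis, log scale), from FPKM as deposited (left) and with the length trend removed from each library (right), with a grey line and band for the median and the 10 to 90% range of all tested genes in 20 length bins and with teneurins in orange, latrophilins in blue and Flrt genes in green. Tenm1, Tenm2, Tenm3 and Tenm4 lie below the bin medians on the left, as do Adgrl2, Adgrl3 and Flrt2, and on the right Tenm1 lies farthest below at -0.49.

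The hemispheres of a mouse are not independent samples. With the correlation within mice modelled (0.347), 2 of 10 members, Tenm1 and Tenm4, were lower at an unadjusted p under 0.05 after R55, against 1.99% of tested genes. With 1 value per mouse 4 were, against 1.79%. The smallest adjusted p of a member was 0.9 and 0.918 in these fits (limma). Leaving out mouse AB, J or R gave 3 members in place of 5, against 2.47%, 3.75% and 2.71% of tested genes. Leaving out AA, AE, AH, K, M or N gave 4, against 2.42 to 6.25%. In the main fit Tenm3 was at the edge, with an unadjusted p of 0.0485 (limma), and it was under 0.05 in 5 of the 14 fits with a mouse left out.

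R33 gave lower values than vehicle for 10 of 10 members, with a median log2 fold change of -0.14 against 0.02 over all tested genes. No member passed the adjusted threshold (0.0% of tested genes did), and the smallest adjusted p of a member was 0.834 (limma). At an unadjusted p under 0.05, Tenm2, Tenm4 and Adgrl3 were lower, 3 of 10 against 2.68% of tested genes. Tenm2 measured 5.04, 7.12, 8.3, 9.5 and 10.7 FPKM after R33, all below the 4 vehicle-treated mice, and was the 1 member of 10 without overlap, against 0.378% of tested genes. Its log2 fold change was -0.46 (SE 0.19, adjusted p = 0.834). Tenm4 had -0.32 (SE 0.11), Adgrl3 -0.27 (SE 0.131), Tenm1 -0.36 (SE 0.178) and Tenm3 -0.12 (SE 0.192).

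These values rest in part on mouse AD. Its means were 0.567 FPKM for Tenm1, 5.21 for Tenm4 and 5.56 for Adgrl3, the lowest of the 5 R33-treated mice for each gene, whereas the other 4 lay at 1.39 to 2.88, 6.86 to 8.9 and 9.25 to 10.8 FPKM. Without it the median of the members was -0.07 and 1 member, Tenm4 at -0.21, was lower at an unadjusted p under 0.05, against 1.7% of tested genes. The log2 fold change was then -0.15 for Tenm1, -0.30 for Tenm2, 0.07 for Tenm3 and -0.10 for Adgrl3. Among mice with 1-letter labels the median after R33 was -0.04 with 0 members at an unadjusted p under 0.05 (2.03% of tested genes were lower by that rule). Among those with 2-letter labels, which hold AD and 1 vehicle-treated mouse only, it was -0.43, and that arm gives no spread between vehicle-treated mice. With the length trend removed no member was lower at an unadjusted p under 0.05 after R33 (1.73% of tested genes were), and the median was -0.07.

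**Figure D3:**
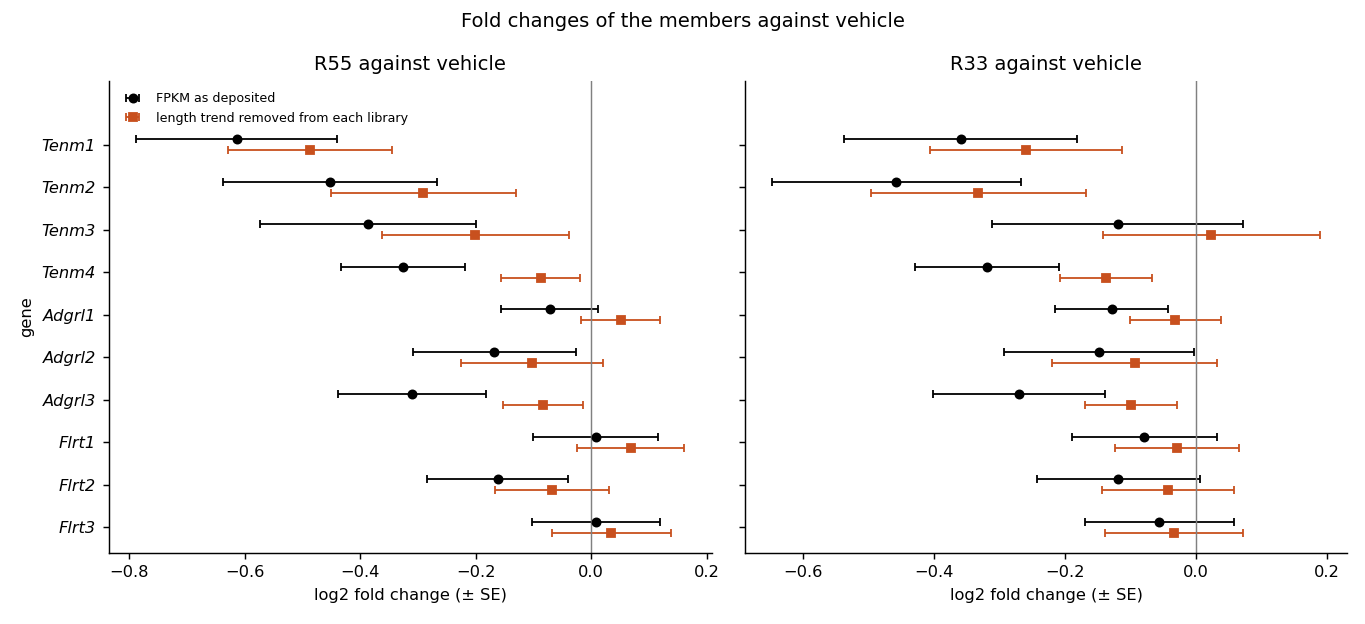
Log2 fold change with its SE (x axis) of each gene (y axis) after R55 (left) and R33 (right) against vehicle, from FPKM as deposited (black circles) and with the length trend removed from each library (orange squares). After removal the values of Tenm4 and Adgrl3 move to within 0.14 of 0 in both comparisons, and Tenm1 after R55 stays at -0.49.

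R55 and R33 were given at the same concentration and time, and this 1 pair of compounds was compared directly. No member differed between R55 and R33 at an adjusted p under 0.05 (0.0% of tested genes did) or at an unadjusted p under 0.05 (1.15% did). The median log2 difference of the members, R55 minus R33, was -0.01. For Tenm1 it was -0.25 with a 95% interval of -0.60 to 0.09, and for Tenm3 -0.27 (-0.64 to 0.11). For Tenm2 it was 0.01 (-0.36 to 0.37), for Tenm4 -0.01 (-0.22 to 0.21), for Adgrl1 0.06 (-0.11 to 0.22), for Adgrl2 -0.02 (-0.30 to 0.26) and for Adgrl3 -0.04 (-0.29 to 0.22). The Flrt genes differed by 0.09 (-0.13 to 0.30) for Flrt1, -0.04 (-0.29 to 0.20) for Flrt2 and 0.06 (-0.16 to 0.29) for Flrt3. Intervals of this width leave room for differences of about the size seen against vehicle. Without mouse AD, 3 members were lower after R55 than after R33 at an unadjusted p under 0.05, against 3.96% of tested genes, with Tenm1 at -0.46, Tenm3 at -0.45 and Adgrl3 at -0.21.

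The R55 values stood further from vehicle in the hemisphere that was not injected. In the contralateral hemisphere 10 of 10 members were lower, as were 39.1% of tested genes, with a median of -0.36 against 0.05 over all tested genes. Without vehicle-treated mouse L 7 of 10 were lower, and without any other mouse 9 or 10 were. Tenm1, Tenm2, Tenm4 and Adgrl3 were lower at an unadjusted p under 0.05, 4 of 10 against 4.74% of tested genes. Contralateral Tenm1 measured 1.86, 2.48, 3.31 and 3.38 FPKM with vehicle and 0.627, 0.705, 0.709, 1.05 and 1.62 FPKM after R55. Its log2 fold change was -0.95 (SE 0.231, adjusted p = 0.357, limma). Contralateral Tenm4 measured 8.1, 9.67, 9.87 and 12.4 FPKM with vehicle and 5.84, 6.02, 6.06, 7.16 and 7.44 FPKM after R55. Its log2 fold change was -0.54 (SE 0.125, adjusted p = 0.357, limma). Tenm2 had -0.69 (SE 0.208) and Adgrl3 -0.48 (SE 0.123).

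In the injected hemisphere no member was lower at an unadjusted p under 0.05 (0.563% of tested genes were), and the median was -0.12. Injected Tenm1 measured 1.58, 1.58, 2.0 and 2.87 FPKM with vehicle and 1.07, 1.11, 1.47, 1.68 and 2.07 FPKM after R55, and these groups overlapped. The relation to gene length differed too: across tested genes its Spearman correlation with the fold change was -0.587 in the contralateral and -0.132 in the injected hemisphere. With the length trend removed the contralateral median was -0.14 and Tenm1, at -0.75 (SE 0.212, adjusted p = 0.702), was the 1 member at an unadjusted p under 0.05, against 1.68% of tested genes. The injected median was then -0.01.

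The difference between the hemispheres in the R55 effect was tested as an interaction. It was positive for 9 of 10 members, so their value was nearer to vehicle or above it in the injected hemisphere. Of 12976 tested genes 5416 were positive, and the median was 0.23 on the log2 scale for the members against -0.03 over all tested genes. No member passed the adjusted threshold (0.0% of tested genes did, smallest adjusted p of a member 0.999, limma), and Tenm4, at 0.44 (SE 0.202), was the 1 member at an unadjusted p under 0.05, against 0.601% of tested genes higher by that rule. With mouse as a replicate block, which compares the hemispheres within each mouse, Tenm1 at 0.68 (SE 0.159) and Tenm4 at 0.44 (SE 0.143) were at an unadjusted p under 0.05, 2 of 10 against 2.45%, and the adjusted p was 0.806 for both. Without mouse AB, L or Q no member was at an unadjusted p under 0.05 in the first of these fits, without AA, N or P 2 were, and without AD 3 were, against 0.185 to 0.285%, 0.64 to 0.717% and 1.57% of tested genes higher by that rule. With the length trend removed the interaction was positive for 7 of 10 members (5017 of 12976 tested genes), with a median of 0.13. For 2 of the 3 latrophilins it was then negative. By that setting 0 members were at an unadjusted p under 0.05 (59 tested genes were higher by that rule). With mouse as a replicate block as well, 2 were (210 tested genes were).

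Mouse by mouse, Tenm1 in the injected minus the contralateral hemisphere was -0.52, -0.43, -0.18 and -0.15 on the log2 scale in vehicle-treated mice L, AH, J and M. It was 0.01, 0.23, 0.30, 0.60 and 0.65 in R55-treated mice AA, P, R, AB and Q. The vehicle-treated mice were all below 0 and the R55-treated mice all above, with mouse AA at the boundary, a separation that 0.324% of tested genes showed in this direction. Flrt2 was above 0 in all 5 R55-treated and below 0 in all 4 R33-treated mice, as were 0.717% of tested genes. For Tenm1, R33-treated mice lay at -0.31, -0.17, -0.16 and 0.31. In R55-treated mice AB and Q all 10 members were higher in the injected hemisphere, with medians of 0.35 and 0.55, and in the other 3 R55-treated mice 4 to 7 were. In R33-treated mouse AD all 10 were lower, with a median of -0.56.

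**Figure D4:**
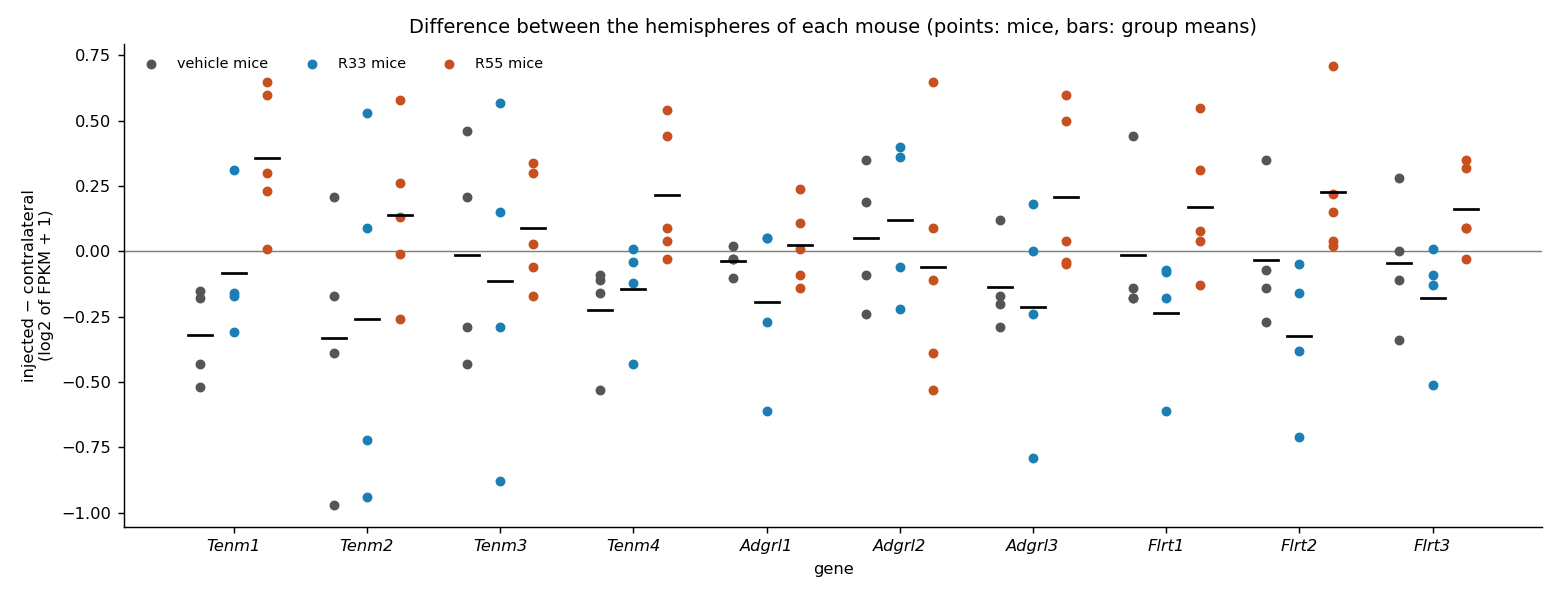
Difference of log2(FPKM + 1) between the injected and the contralateral hemisphere (y axis) for each gene (x axis) in the 13 mice with both hemispheres, with points for mice, colours for treatment and bars for group means. Tenm1 lies below 0 in all 4 vehicle-treated mice and above 0 in all 5 R55-treated mice, with means of -0.32 and 0.36, while Tenm4 lies between -0.53 and -0.09 with vehicle and between -0.03 and 0.54 after R55, and Flrt2 lies below 0 in all 4 R33-treated and above 0 in all 5 R55-treated mice.

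Over all mice, injected against contralateral, the median log2 fold change of the 10 members was -0.01, with values from -0.10 for Tenm2 (SE 0.15) to 0.01 for Adgrl2 (SE 0.115). None was at an adjusted p under 0.05 (0.0% of tested genes were) or at an unadjusted p under 0.05 (3.47% were) (limma). In the within-mouse differences, Tenm2 averaged -0.13 ± 0.51 and Adgrl1 -0.06 ± 0.206 (SD, n = 13 mice), and the number of mice with a higher value in the injected hemisphere ran from 5 to 7 of 13 over the members. By count the treatments did not share a direction. In R55-treated mice 9 of 10 members were higher in the injected hemisphere (median 0.17), as were 5887 of 12976 tested genes. In R33-treated mice 9 of 10 were lower there (median -0.17), as were 49.7% of tested genes. In vehicle-treated mice 9 of 10 were lower (median -0.04), as were 42.3%. With each mouse left out 0 to 2 were lower in R55-treated, 7 to 10 in R33-treated and 6 to 10 in vehicle-treated mice. Without mouse AD the R33 median was -0.07. With the length trend removed 7 were higher after R55 (median 0.05). By that setting 9 were lower after R33 (median -0.13) and 7 after vehicle (median -0.02). With mouse as a replicate block, Tenm1 (0.36, SE 0.106) and Tenm4 (0.21, SE 0.0951) were higher at an unadjusted p under 0.05 after R55, 2 of 10 against 4.36% of tested genes, with a smallest adjusted p of 0.5. After R33, Flrt2 (-0.33, SE 0.128) was lower, 1 of 10 against 2.72%, with an adjusted p of 0.777 (limma). In vehicle-treated mice 1 of 10 members, a teneurin, was lower at an unadjusted p under 0.05, as were 134 of 12976 tested genes. With the length trend removed as well, 2 teneurins were lower by that rule in vehicle-treated mice, as were 151 tested genes.

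Teneurin values went together over the libraries as deposited, and less so with the length trend removed. Over the 27 libraries the Spearman correlation of log2 values between teneurin pairs was 0.44 to 0.80 with a median of 0.63, and the latrophilin Adgrl3 followed them with 0.87 for Tenm1, 0.86 for Tenm4, 0.80 for Tenm2 and 0.70 for Tenm3. Pairs of Flrt genes had 0.25 to 0.49 and pairs of latrophilins 0.16 to 0.44. All points share the library, its depth and its length trend. They also mix treatments and hemispheres of the same mice, and include the low library of the injected hemisphere of mouse AD. With the length trend removed, the correlation with Adgrl3 was 0.67 for Tenm1, 0.87 for Tenm2, 0.72 for Tenm3 and 0.61 for Tenm4, and teneurin pairs had 0.18 to 0.68. Adgrl1 then had -0.48 with Tenm1, -0.37 with Tenm2, -0.62 with Tenm3 and 0.19 with Tenm4. For deviations from the means of the treatment and hemisphere groups, teneurin pairs then had Pearson correlations from 0.02 (Tenm3 and Tenm4) to 0.78 (Tenm2 and Tenm3). The tested genes most like each member over the 27 libraries were named by Spearman correlation as a description. They were Akap9, Ubr1 and Akap11 for Tenm1 (0.91 to 0.92), Cracd, Chl1 and Ncam1 for Tenm2 (0.86 to 0.91), Nrip1, Sema3e and Lrrc8d for Tenm3 (0.81 to 0.83), and Astn1, Hectd4 and Ank2 for Tenm4 (0.89 to 0.92). For the latrophilins they were Mn1, Fbxo41 and Dab2ip for Adgrl1 (0.88 to 0.92), Plcg1, Pcdhb11 and Kif16b for Adgrl2 (0.77 to 0.78), and Ep400, Usp34 and 4932438a13rik for Adgrl3 (0.93 each). For the Flrt genes they were Arhgap26, Slc35e1 and Slc6a17 for Flrt1 (0.88 to 0.89), Gria3, Slitrk1 and Scube1 for Flrt2 (0.90 to 0.92), and Pkia, Fam8a1 and Snx14 for Flrt3 (0.84 to 0.88). With the length trend removed, Chl1 and Tenm2 had 0.90 and Gria3 and Flrt2 had 0.90, while Ank2 and Tenm4 had 0.50.

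Genes whose proteins bind the members, or act in the same kind of contact, were described from fixed lists. None of the 14 listed binding partners (Unc5 receptors, neurexins, dystroglycan, Fgf receptors, Robo1 and Shank scaffolds) passed the adjusted threshold after R55, and 3 of the 14 were lower at an unadjusted p under 0.05 and 0 higher (3.74% of tested genes were lower by that rule), with a median log2 fold change of -0.12 against 0.03 over all tested genes. They were Robo1, a Slit receptor that binds Flrt3 (-0.32, SE 0.116), Unc5c, a netrin receptor (-0.27, SE 0.115), and Nrxn3, a presynaptic neurexin (-0.29, SE 0.132). With the length trend removed 1 of 14 was lower by that rule, Robo1 at -0.21, against 2.14% of tested genes, and the median of the 14 was -0.03. Of 19 other synaptic adhesion genes with leucine-rich repeats, 2 were lower and 0 higher, Slitrk5 and Elfn2, and the third by p was Lrrtm3 at 0.20 (SE 0.114). Of 15 other trans-synaptic adhesion genes 1 was lower and 0 higher, Nlgn1, the postsynaptic partner of neurexins, at -0.24 (SE 0.0977), or 0.03 with the length trend removed, followed by Cadm2 at -0.27 and Cbln2 at 0.23. Of 9 tested other adhesion G protein-coupled receptor genes 1 was lower and 0 higher, Adgrg1, at -0.43 (SE 0.149) with or -0.42 without the length trend, followed by Adgrb3 at -0.23 and Adgrb2 at -0.10. In the order given, the medians of these other 3 lists after R55 were -0.06, -0.07 and 0.02. After R33 the medians of the 4 lists were -0.12, -0.07, -0.12 and -0.09. By list, 0, 1, 2 and 2 genes were then lower at an unadjusted p under 0.05 (2.68% of tested genes were), and none passed the adjusted threshold (limma).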

How the data were processed

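RNA of cortical blocks was sequenced by the authors as stranded mRNA libraries, aligned to GRCm39 with HISAT2 and deposited as FPKM per gene symbol. The counting tool, its annotation and its use of strand are not given in the sources used here. Of 32 libraries in the table, the 27 named in the labels were used and 5 were not used here. Fragments were recovered from the FPKM, and 100.0% of the values were whole fragments within 0.01. Their totals matched the relative depths that the FPKM imply to within 5.0e-07. The depth of 15932196 to 38077026 fragments per library rests on this.

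Members and gene lists were chosen with earlier results of these data known. The rule named all 10 members, up to 3 genes per list by p after R55, and the 3 genes most like each member. Genes averaging 1 FPKM or more were fitted on log2(FPKM + 1) with limma 3.58.1 (R 4.3.3), treatment and hemisphere as factors, an intensity trend and Benjamini-Hochberg adjustment. The log scale was chosen because the table gives FPKM. The fit was also run on simulated data with a known change. Those data held no correlation between the hemispheres of a mouse and no length trend, so that run cannot test either. Each hemisphere was also fitted alone, and the interaction in a model of the 6 groups. Hemispheres pair by mouse: their deviations from group means correlated with a mean r of 0.394 (-0.0787 to 0.648, 13 mice). Alternatives were another scaling, no filter, a pseudocount of 0.1, no intensity trend, voom on recovered fragments, a length or GC trend removed by lowess (span 0.3), mouse as a modelled correlation, block or single value, the label series, and each mouse left out. In the main fit p-values measure the spread between libraries, with the hemispheres of a mouse taken as separate samples. With mouse as a replicate block they measure the spread within mice. With 1 value per mouse, or with a hemisphere fitted alone, they measure the spread between these mice. Positions are from GENCODE on GRCm39 and start windows from RefSeq on GRCm38.p6. Python 3.11.15 with pandas 2.3.3 and scipy 1.17.1 was used for the rest.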

Additional observations from a re-analysis of the deposited data

Results flagged for a closer look

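Among 60 groups of 4 or 5 libraries (10 genes, 3 treatments, both hemispheres), 2 held a library far from the others, and chance alone flags about 1 group in 20. Adgrl2 in the injected hemisphere of vehicle-treated mouse L measured 22.1 FPKM, against 12.5 to 13.6 FPKM in the other vehicle-treated mice. Without mouse L the log2 fold change of Adgrl2 after R55 was -0.01 in place of -0.17. Adgrl3 in the injected hemisphere of R33-treated mouse AD measured 3.8 FPKM, against 9.26 to 11.0 FPKM in the others, and 7.31 FPKM in the contralateral hemisphere of that mouse.

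The hemispheres differed in opposite directions in every mouse of a pair of treatments for 2 of the 10 genes. Over all tested genes, 0.324% were higher in every R55-treated and lower in every vehicle-treated mouse, as Tenm1 was, and 0.717% higher in every R55-treated and lower in every R33-treated mouse, as Flrt2 was. For Tenm1 the difference between R55-treated and vehicle-treated mice was 0.68 on the log2 scale, which the interaction with mouse as a replicate block gave an adjusted p of 0.806 (limma). For Flrt2 the difference between R55-treated mice (0.02 to 0.71) and R33-treated mice (-0.71 to -0.05) was 0.55 on the log2 scale, and this difference was not tested.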

How the results depend on the processing

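No member was called in any of the 315 fits, which cover every comparison with its alternatives and each mouse left out. The number of 10 members at an unadjusted p under 0.05 depended on the setting. For R55 against vehicle it was 5 (485 of 12976 tested genes were lower by that rule), and 3 among 1-letter mice (639 were). Among 2-letter mice, with 1 vehicle-treated mouse whose hemispheres give no spread between mice, the median was -0.32. The count was 2 with a modelled correlation of the hemispheres of a mouse (258 tested genes were lower). With the length trend removed it was 1, alone (278 were), with that correlation (107 were) or with 1 value per mouse (98 were, the last chosen after seeing the data). With each mouse left out it was 3 to 5 (2.42 to 6.25% of tested genes were lower). For R33 against vehicle it was 3 (348 of 12976 tested genes were lower), 0 among 1-letter mice (263 were) and 1 with the correlation modelled (145 were). It was 0 with the length trend removed in each of these ways (224, 91 and 102 were lower). With each mouse left out it was 1 to 4 (1.66 to 4.05% of tested genes were lower). The median after R33 was -0.43 among 2-letter mice in place of -0.14. For R55 against R33 it was 0 (54 of 12976 tested genes were lower and 95 higher), and 1 member was lower among 1-letter mice (261 tested genes were). With each mouse left out it was 0 to 3 (0.247 to 3.96% of tested genes were lower). The median was 0.18 among 2-letter mice in place of -0.01. Of fold changes beyond their SE, 2 changed sign: Adgrl2 after R33 was 0.01 without mouse L and -0.25 without mouse J, and Tenm1, R55 against R33, was 0.19 among 2-letter mice. For injected against contralateral, mouse as a replicate block gave 0 members called and a median of -0.02, and changed no other call. Depth limits Tenm1 most, read from 117 fragments in its lowest library. The cause of these shifts was not tested.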
